A study of Mus musculus with 8 samples.

Results

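The Mmp, Adamts and Timp genes, which encode secreted and membrane-bound enzymes that cut the extracellular matrix and the inhibitors of those enzymes, were followed in mouse skeletal myogenic cells that were either freshly isolated or expanded in culture. Members were taken by symbol alone, as every gene named Mmp or Adamts with a number and every Timp gene from 1 to 4. The deposited count table held 46 such genes of 24980 in all, namely 23 Mmp, 19 Adamts and 4 Timp genes. RNA-seq had been done on 8 libraries, 2 biological replicates in each of 4 groups. The fresh teratoma-derived cells (TF) came from teratomas, which are tumors of mixed tissues, grown from 1 line of EGFP-labeled mouse embryonic stem cells (E14) in tibialis anterior muscles of NSG-mdx4Cv mice that had been irradiated and injured with cardiotoxin. They had been sorted as EGFP-positive cells without the endothelial marker CD31 and the blood cell marker CD45 and with α7-integrin and VCAM-1. The expanded teratoma-derived cells (TE) were such cells grown on gelatin to passage 8. The fresh satellite cells (SF) were the stem cells of adult muscle taken directly, and the expanded satellite cells (SE) were satellite cells at passage 8. The paper describes both kinds of expanded cells as cultured under the same conditions. The strain and age of the animals behind the satellite cells and the details of their isolation are not given in the sources used here. Cell origin and tissue of isolation differ together between the teratoma-derived and the satellite cells and cannot be told apart, nor can any difference in strain be told apart from them. Recent isolation from tissue and growth in culture likewise differ together between the fresh and the expanded groups and cannot be told apart. Words such as fell, rose or change in culture therefore stand for a difference between expanded and fresh groups.

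The matrix metalloproteinases, encoded by the Mmp genes, are zinc enzymes made as inactive precursors. Most are secreted, and a subset, the membrane-type enzymes, stays at the cell surface. They are grouped by what they cut: collagenases open the triple helix of fibrillar collagen, gelatinases cut denatured collagen and basement membrane collagen, and stromelysins cut proteoglycans, fibronectin and laminin. The ADAMTS enzymes are secreted relatives with thrombospondin repeats. Some of them trim the ends of procollagen so that fibrils can form, and others cut the large proteoglycans aggrecan and versican. The 4 TIMP proteins bind and block matrix metalloproteinases, and TIMP2 also takes part in the activation of proMMP2 by MMP14 at the cell surface. In muscle, a satellite cell lies between the fiber and its basement membrane, and cells that leave this niche have to cross or remodel it.

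Counts are given as normalized counts, the deposited estimated counts divided by each library's median-ratio size factor, and the values of a group are those of its replicates 1 and 2 in that order. Groups were compared with edgeR's quasi-likelihood test over the 17582 genes with enough counts, and a gene was called at an adjusted p (Benjamini-Hochberg) below 0.05 and a fold change above 1.25. Each log2 fold change is given with its standard error, and each fold is the ratio of the group means of normalized counts. Of the 46 members, 41 had enough counts to be tested. Adamts13, Mmp1a, Mmp1b, Mmp20 and Mmp21 did not, and the largest value any of them reached in any library was 63.6 (Adamts13 in SF1). With 2 libraries per group, the p-values rest on a spread estimated with few libraries.

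The libraries held between 11930961 and 21146632 counts, and between 61.7% and 71.9% of the genes had a count above 0 in 7 of them. SF1 stood apart with 88.7% of the genes above 0, and all 46 members had a value above 0 there against 34 in SF2. Mmp1a, Mmp1b and Mmp20 had counts in SF1 only, so such low values in SF1 are given but carry no statement. The myogenic marker list (Pax7, Myf5, Myod1, Itga7, Vcam1, Cdh15 and Des) was present in every library, with summed normalized counts of 20110 and 25060 in TF, 33490 and 34020 in TE, 34660 and 43370 in SF, and 41680 and 50060 in SE. Markers of other cells were also present in the fresh libraries. The endothelial list summed to 3646 and 1073 in TF, 16.5 and 6.94 in TE, 4794 and 6016 in SF, and 33.6 and 20.6 in SE, and the fibro-adipogenic list to 28580 and 29210 in TF, 615 and 578 in TE, 56230 and 101600 in SF, and 1527 and 2055 in SE. Gsn made up most of the fibro-adipogenic sum in SF (48020 and 89350), TE and SE. Between the fresh groups, Gsn and Cd34 were higher in SF, and Ly6a and Dpt overlapped. Pdgfra (4158 and 4320 in TF, 1438 and 2115 in SF) and Lum were higher in TF. The haematopoietic list stood at 6400 in TF1 against 528 in TF2, and between 11.2 and 511 in the other libraries. All 6 genes of each of these 3 lists were above 3 counts in the 4 fresh libraries, while Kdr, Emcn and Cldn5 of the endothelial list and Ptprc and Adgre1 of the haematopoietic list were at 0 in the 4 expanded ones. Pecam1, which encodes CD31, stood at 849 and 84.9 in TF, and Ptprc, which encodes CD45, at 772 and 98.4, although these cells had been sorted without both proteins. In bulk RNA, fewer cells of a type and less RNA per cell cannot be told apart, and this holds for every difference given here.

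**Figure D1:**
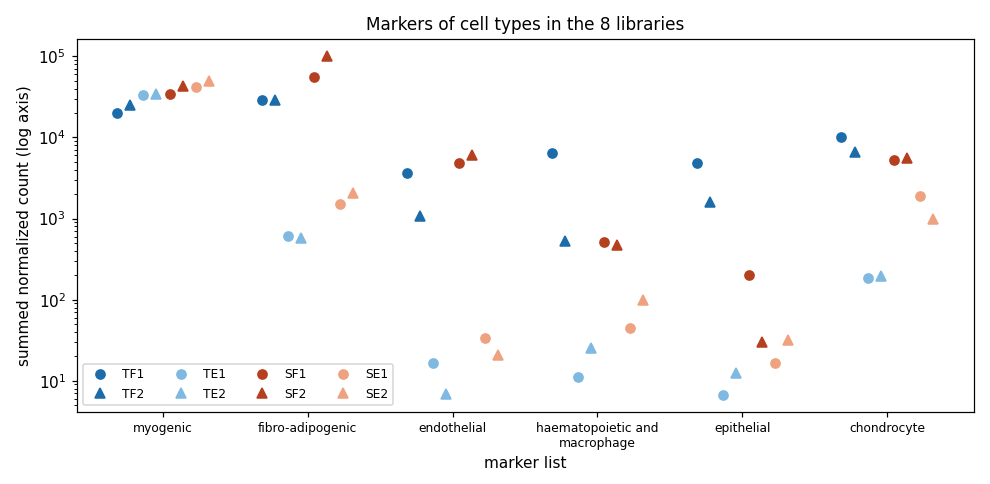
Summed normalized counts (log axis) of 6 marker lists in the 8 libraries, with circles for replicate 1 and triangles for replicate 2 of each group. The myogenic sums lie between 20110 and 50060 in all libraries, while the fibro-adipogenic and endothelial sums of the 4 fresh libraries lie above those of the 4 expanded libraries.

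Of the 46 members, 10 Mmp genes lie side by side on chromosome 9, in 427.1 kb at chr9:7272514-7699585 (GRCm38, GENCODE), with 0 other protein-coding genes between them (Mmp1a is annotated as a polymorphic pseudogene). In the order of their start they are Mmp13, Mmp12, Mmp1b, Mmp3, Mmp1a, Mmp10, Mmp8, Mmp27, Mmp20 and Mmp7. The letters TGANTCA are a loose form of the site bound by AP-1 (dimers of Fos and Jun proteins), with any base at N. They were searched on both strands in RefSeq promoters of build GRCm38.p6, which run from 250 bases before to 50 bases after a gene's start. They were found in 8 of the 32 members with a promoter in that set, and all 8 were in the chromosome 9 cluster, where Mmp8 and Mmp27 were without it, while 0 of the 22 other members had it. Among all 27025 genes of the set, 8.97% had it. The sites are shown because 8 members of the cluster shared these letters. Each stretch is given 5′ to 3′ on the strand of its gene, with the AP-1 letters in capitals, and its distance is that of the first capital from the RefSeq start of the promoter that holds it, which can differ from the start in GENCODE. Mmp12 and Mmp7 each had 2 RefSeq starts, and the letters were before 1 of them only. In Mmp12 this was the downstream one, and the promoter at its upstream start, which is the one near the GENCODE start of the gene (chr9:7344381), did not hold them.

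Mmp3, which encodes stromelysin 1, chr9:7445760-7445798 (+), -46:
Mmp3: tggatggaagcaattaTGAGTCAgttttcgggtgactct
Mmp13, which encodes collagenase 3, chr9:7272463-7272501 (+), -35:
Mmp13: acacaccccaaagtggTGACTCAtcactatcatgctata
Mmp12, which encodes macrophage elastase, chr9:7347314-7347352 (+), -44 from the downstream start:
Mmp12: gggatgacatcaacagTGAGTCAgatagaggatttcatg
Mmp10, which encodes stromelysin 2, chr9:7502263-7502301 (+), -63:
Mmp10: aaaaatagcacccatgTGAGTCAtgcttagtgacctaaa
Mmp7, which encodes matrilysin, chr9:7692011-7692049 (+), -63:
Mmp7: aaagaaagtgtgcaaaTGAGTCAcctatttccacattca
Mmp1a and Mmp1b, the paralogous interstitial collagenase genes, chr9:7464052-7464090 (+), -73, and chr9:7388097-7388135 (-), -93:
Mmp1a: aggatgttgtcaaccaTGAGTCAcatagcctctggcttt
Mmp1b: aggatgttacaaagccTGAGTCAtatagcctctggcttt
Mmp20, which encodes enamelysin, chr9:7628120-7628158 (+), -95:
Mmp20: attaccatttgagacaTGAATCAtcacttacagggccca

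The site lies between 35 and 95 bases before that RefSeq start in these 8 genes. Its center base, left free in the search, is A in Mmp20 and G or C in the others. The whole 250 bases before the start are given for Mmp3, the member of the cluster with the highest values in all 4 fresh libraries, at chr9:7445572-7445821 (+).
Mmp3: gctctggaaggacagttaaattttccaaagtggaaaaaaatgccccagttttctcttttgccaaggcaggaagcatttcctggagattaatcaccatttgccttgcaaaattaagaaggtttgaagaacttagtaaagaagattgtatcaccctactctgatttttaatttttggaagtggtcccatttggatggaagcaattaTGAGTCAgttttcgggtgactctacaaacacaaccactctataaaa
The Ets letters CCGGAA were in 1 of the 32 members (Adamts14) against 16.7% of all genes, and the E-box letters CAGCTG, bound by myogenic factors among others, in 7 of the 32 against 18.3% of all genes. A match of letters is a description and not a site of binding.

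The summed level of each family was lower in both expanded groups than in their fresh counterparts. The Mmp genes together gave 22543 and 22524 in TF, 4634 and 4406 in TE, 10008 and 12028 in SF, and 7685 and 6997 in SE. The Adamts genes together gave 28135 and 29214 in TF, 5176 and 5277 in TE, 41002 and 50474 in SF, and 5297 and 6408 in SE. The Timp genes together gave 16510 and 18919 in TF, 3809 and 4014 in TE, 15733 and 22339 in SF, and 9700 and 9104 in SE. The expanded libraries of each origin lay below the fresh ones of that origin in all 3 families, with the widest gap for the Adamts genes and the narrowest for the Mmp genes of the satellite cells. The number of members above 3 counts went from 40 and 39 in TF to 25 and 26 in TE, and from 45 and 33 in SF to 28 and 29 in SE. The 45 is that of SF1, the library that stood apart in detection. Over all genes, where only the share above 0 was counted, it was 71.9% and 70.3% in TF and 63.4% and 61.7% in TE. In SF it was 88.7% and 68.6%, and in SE 63.5% and 65.8%.

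Divided by the length of the longest coding transcript, so that genes can be set side by side, few members made up most of each family. In TF, Mmp14 (3338 normalized counts per kb) and Mmp2 (2880) were 46.6% and 40.2% of the Mmp sum. In SF, Mmp2 (1997) was 55.2% of it and Mmp14 (799.9) 22.1%. Mmp14 headed the family in TE (742, 53.7%) and in SE (972, 43.9%). Adamts1 headed the Adamts genes in TF (1800, 35.2%) and SF (4261, 47%), Adamts5 in TE (183, 22.3%) and Adamts4 in SE (505, 44.2%). Among the inhibitors, Timp3 was 46.6% and Timp2 40.5% of the sum in TF, whereas Timp2 was 64.3% in TE and 69.6% in SE.

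**Figure D2:**
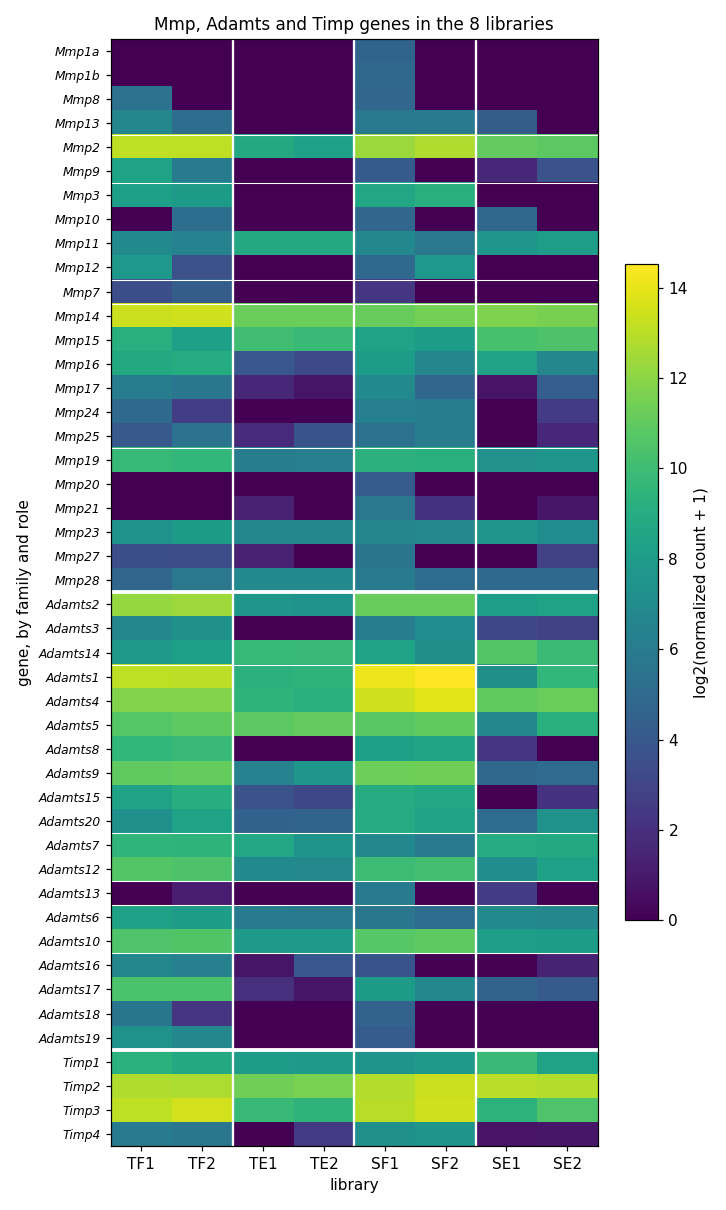
Level of each of the 46 members (rows, ordered by family and role, lines between roles) in each library (columns), as log2(normalized count + 1). Mmp2, Mmp14, Adamts1, Adamts4, Timp2 and Timp3 are among the brightest rows, and the TE and SE columns hold more rows at 0 than the TF and SF2 columns.

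The first question was how the genes differed between expanded and fresh teratoma-derived cells. Of the 41 tested members, 26 were lower and 3 higher in TE than in TF, or 63.4% and 7.32%, where 16.2% of all 17582 genes were lower and 9.86% higher, or 26.1% in either direction. The 26 were 9 Mmp, 14 Adamts and 3 Timp genes, and the 3 higher members were Mmp11, Mmp15 and Adamts14. The median log2 fold change was -3.66 over the members and -0.18 over all genes tested, and -3.50 over the members when those at 0 in TE were set to their lower bound. TF1 had higher haematopoietic, endothelial and epithelial marker sums than TF2. Without TF1, the calls of Mmp9, Mmp12, Mmp13, Mmp17, Adamts7 and Adamts19 were lost, with log2 values between -9.82 for Adamts19 and -1.18 for Adamts7. Calls were also lost without TF2, TE1 or TE2, and each such fit leaves a single library in a group.

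The same question was asked of satellite cells. Of the 41 members, 18 were lower and 6 higher in SE than in SF, or 43.9% and 14.6%, where 19.8% of all genes were lower and 20.9% higher, or 40.7% in either direction. The 18 were 5 Mmp, 11 Adamts and 2 Timp genes, and the 6 higher members were Mmp11, Mmp15, Adamts6, Adamts7, Adamts14 and Timp1. The median log2 fold change was -2.57 over the members and -0.23 over all genes. It was -2.34 over the members when those at 0 in SE were set to their lower bound. For that value, 1 member with no more than 3 counts in any SF or SE library was left out. Without SF1, 17 members were lower and 5 higher, and the 2 calls lost were Mmp25 (adjusted p = 0.051) and Timp1 (adjusted p = 0.066, edgeR's quasi-likelihood test).

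The comparisons of TE with TF and of SE with SF share no library. Members called lower in both numbered 16, which is 61.5% of those lower in TE and 88.9% of those lower in SE. Over all genes tested, 1724 were lower in both, which is 60.5% of those lower in TE and 49.6% of those lower in SE. Mmp11, Mmp15 and Adamts14 were higher in both, which is 100% of the members higher in TE and 50% of those higher in SE. For all genes tested, 1115 were higher in both, which is 64.3% of those higher in TE and 30.3% of those higher in SE. Adamts6 and Adamts7 were lower in TE and higher in SE, and the share of all genes with such opposite calls was not counted. The fibro-adipogenic list moved with these counts, since its sums in the expanded libraries were between 577.5 and 2055 against 28580 to 101600 in the fresh ones, with Dpt at 0 in both TE libraries and Lum at 0 in both SE libraries. Its part in the lower levels of the members was not tested.

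**Figure D3:**
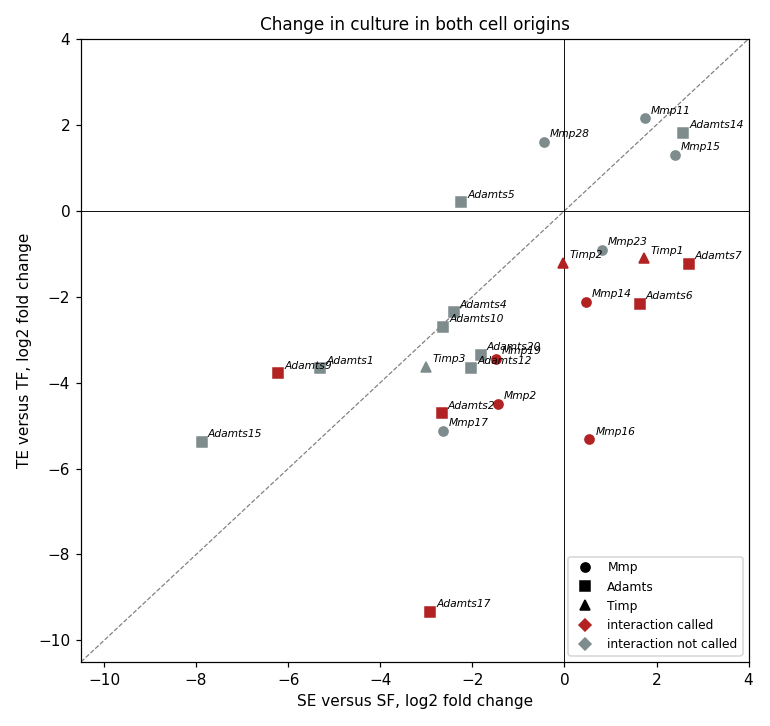
Fitted log2 fold change of SE versus SF (horizontal) and of TE versus TF (vertical) for 25 members, with shape for the family and red for members whose interaction was called; the dashed line marks equal change. The other 16 tested members are left out because a group was at 0 or at 1 to 3 counts. Mmp2, Mmp14, Mmp16 and Adamts17 lie below the line, and Adamts9 above it.

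Among the gelatinases, Mmp2 (chr8:92827291-92853420), whose product cuts denatured and basement membrane collagen, gave 8904 and 8824 in TF, 439.6 and 321 in TE, 5254 and 7040 in SF, and 2085 and 1866 in SE. The 4 groups did not overlap, with TF highest and TE lowest. Mmp2 fell 23.3-fold in culture of the teratoma-derived cells (log2 -4.49 ± 0.26, adjusted p = 5.07e-06) and 3.11-fold in culture of the satellite cells (log2 -1.45 ± 0.23, adjusted p = 0.000838, both edgeR's quasi-likelihood test). The 2 changes differed from each other (interaction log2 -3.04 ± 0.32, adjusted p = 0.000525, edgeR). Mmp9, the other gelatinase, which is abundant in neutrophils and macrophages, gave 347 and 60.3 in TF, 0 in both libraries of TE, 16.6 and 0 in SF, and 2.15 and 12 in SE. TF1 held the highest value by far. Mmp9 was at least 89.3-fold higher in TF than in TE, where it was at 0 in both libraries (adjusted p = 0.0131), but the call was lost without TF1 (adjusted p = 0.107, edgeR's quasi-likelihood test). TF1 was also the library with the high haematopoietic sum, 6400 against 528 in TF2, and the part of such cells in the level of Mmp9 was not tested.

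Among the membrane-type enzymes, Mmp14 (MT1-MMP, chr14:54431612-54445364), which activates proMMP2 and cuts fibrillar collagen, gave 10370 and 11240 in TF, 2369 and 2435 in TE, 2301 and 2879 in SF, and 3381 and 2917 in SE. TF lay above all other libraries, which were within 2301 to 3381. Mmp14 fell 4.5-fold from TF to TE (log2 -2.12 ± 0.20, adjusted p = 7.14e-05), while SE against SF gave log2 0.47 ± 0.19, adjusted p = 0.0764 (edgeR's quasi-likelihood test), which was not called. Mmp15 (MT2-MMP) gave 543 and 290.4 in TF, 1078 and 902 in TE, 336 and 247 in SF, and 1260 and 1422 in SE. It rose in both cultures, 2.38-fold in TE (log2 1.31 ± 0.30, adjusted p = 0.011) and 4.59-fold in SE (log2 2.40 ± 0.31, adjusted p = 0.000278, edgeR), and the call in TE was lost without TF2 (adjusted p = 0.0606) or TE1 (adjusted p = 0.0502).

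Mmp16 (MT3-MMP) gave 453 and 499 in TF, 14.2 and 8.48 in TE, 249 and 94.7 in SF, and 332 and 102 in SE. TE was far below the other groups, and the SF and SE libraries overlapped. It fell 41.9-fold in TE (log2 -5.32 ± 0.73, adjusted p = 0.000668), and SE against SF gave log2 0.54 ± 0.59, adjusted p = 0.48 (edgeR's quasi-likelihood test), with a sign that turned without SE1 (log2 -0.51). Mmp17 gave 66.2 and 51.7 in TF, 2.25 and 0.771 in TE, 116 and 26.2 in SF, and 0.715 and 18.9 in SE, at low counts throughout. It was called lower in TE (log2 -5.13 ± 1.67, adjusted p = 0.0488, edgeR), a call that was lost without any 1 of TF1, TF2, TE1, TE2 or SF1 (adjusted p between 0.0612 and 0.199). Mmp25 (MT6-MMP), known from neutrophils, gave 15.6 and 45 in TF, 2.46 and 12.6 in TE, 43.7 and 71.1 in SF, and 0 and 2.02 in SE. The ratio of SF to SE was 56.9 with a 95% counting interval from 15.8 to 470.0 (adjusted p = 0.0342, edgeR's quasi-likelihood test), and the call was lost without TF2, SF1, SF2 or SE1 (adjusted p between 0.051 and 0.148).

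In the chromosome 9 cluster, the summed values were 667.5 and 349.4 in TF, 1.50 and 0 in TE, 661.3 and 853.5 in SF, and 47.2 and 6.01 in SE. Of its 10 genes, 6 were above 3 counts in each TF library and 0 in each TE library, 9 in SF1, 3 in SF2, 2 in SE1 and 1 in SE2. Mmp3, the stromelysin with the highest level of the cluster, gave 289.5 and 237 in TF, 0 in both libraries of TE, 399 and 579 in SF, and 0 in both libraries of SE. It was at 0 in all 4 expanded libraries and above 230 in all 4 fresh ones. Mmp3 was at least 116-fold higher in TF than in TE (adjusted p = 9.56e-05) and at least 207-fold higher in SF than in SE (adjusted p = 4.31e-05, both edgeR's quasi-likelihood test).

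Mmp12, the macrophage elastase, gave 210.5 and 11.1 in TF, 0 in both libraries of TE, 30.8 and 215 in SF, and 0 in both libraries of SE. It was also at 0 in the 4 expanded libraries, but 1 replicate of each fresh group was far above the other. It was at least 48.6-fold higher in TF than in TE (adjusted p = 0.0217), a call lost without TF1 (adjusted p = 0.0699), and at least 52-fold higher in SF than in SE (adjusted p = 0.0146, all edgeR's quasi-likelihood test). Mmp13 gave 103 and 35.7 in TF, 0 in both libraries of TE, 57.3 and 59.3 in SF, and 18.6 and 0 in SE. It was at least 30.3-fold higher in TF than in TE (adjusted p = 0.0259, edgeR), a call lost without TF1, TE1 or TE2 (adjusted p between 0.0628 and 0.0755). Mmp7, Mmp8, Mmp10 and Mmp27 were called in none of the comparisons, and none of them exceeded 47.1 in any library. Mmp12 and Mmp1b overlap on opposite strands and Mmp1a and Mmp1b are paralogs, so counts of these 3 genes may be shared between them.

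**Figure D4:**
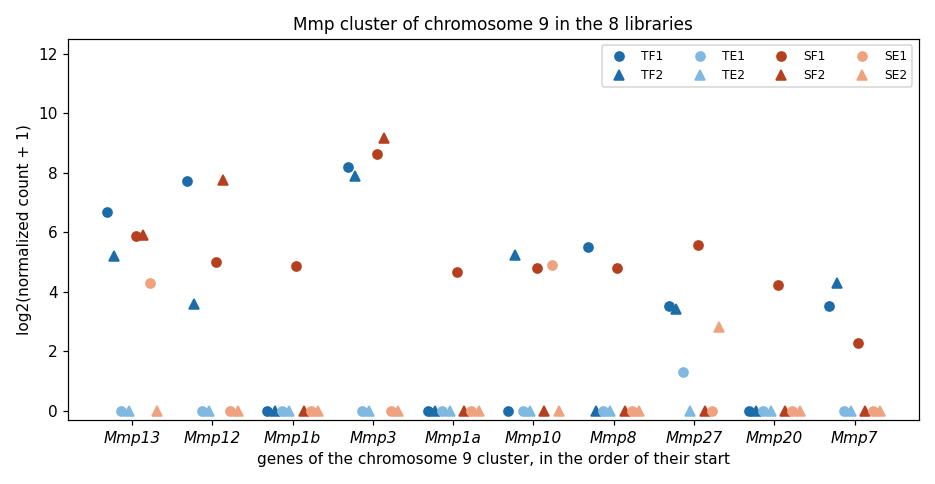
Level of the 10 Mmp genes of the chromosome 9 cluster (horizontal, in the order of their start) in each library, as log2(normalized count + 1), with circles for replicate 1 and triangles for replicate 2. Mmp3 is at 0 in the 4 expanded libraries and between 237 and 579 normalized counts in the 4 fresh ones.

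RNA of AP-1 subunits was high in the fresh groups. Fos gave 32690 and 35780 in TF, 246 and 189.6 in TE, 24690 and 28540 in SF, and 187 and 189 in SE. Fosb gave 33360 and 36570 in TF, 30.7 and 31.6 in TE, 41770 and 47180 in SF, and 23.6 and 21.4 in SE. Fos was lower in TE than in TF (log2 -7.24 ± 0.27, adjusted p = 1.37e-06) and in SE than in SF (log2 -6.95 ± 0.27, adjusted p = 1.26e-06, edgeR's quasi-likelihood test), as were Fosb, Fosl2, Jun, Junb and Jund in both comparisons. Of the 12 AP-1 and Ets genes looked at, all tested, 8 were lower and 0 higher in TE, and 9 were lower and 1 higher (Etv4) in SE. Over all genes, 16.2% were lower and 9.86% higher in TE, and 19.8% lower and 20.9% higher in SE. Whether AP-1 had any part in the levels of the cluster was not tested.

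The other Mmp genes that were called are Mmp11 and Mmp19. Mmp11 (stromelysin 3), which is activated inside the cell by furin, gave 117 and 86.1 in TF, 439 and 429 in TE, 109.6 and 52.5 in SF, and 193 and 281 in SE. The expanded libraries lay above all fresh ones. It rose 4.27-fold in TE (log2 2.15 ± 0.44, adjusted p = 0.00582) and 2.92-fold in SE (log2 1.75 ± 0.43, adjusted p = 0.0101, edgeR's quasi-likelihood test). Mmp11 overlaps Chchd10 on the opposite strand. Mmp19 gave 828 and 784 in TF, 69.1 and 73.9 in TE, 636 and 542 in SF, and 161 and 204 in SE. It fell 11.3-fold in TE (log2 -3.44 ± 0.28, adjusted p = 3.18e-05) and 3.23-fold in SE (log2 -1.50 ± 0.26, adjusted p = 0.00148, edgeR). Mmp23, whose mean over all libraries also reached 100 normalized counts, gave 175 and 238 in TF, 102 and 109 in TE, 96.8 and 114 in SF, and 193 and 130.4 in SE and was called in none of the comparisons (adjusted p = 0.146 for TE against TF and 0.158 for SE against SF, edgeR's quasi-likelihood test). Mmp24 and Mmp28 were not called either and did not exceed 116 in any library.

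**Figure D5:**
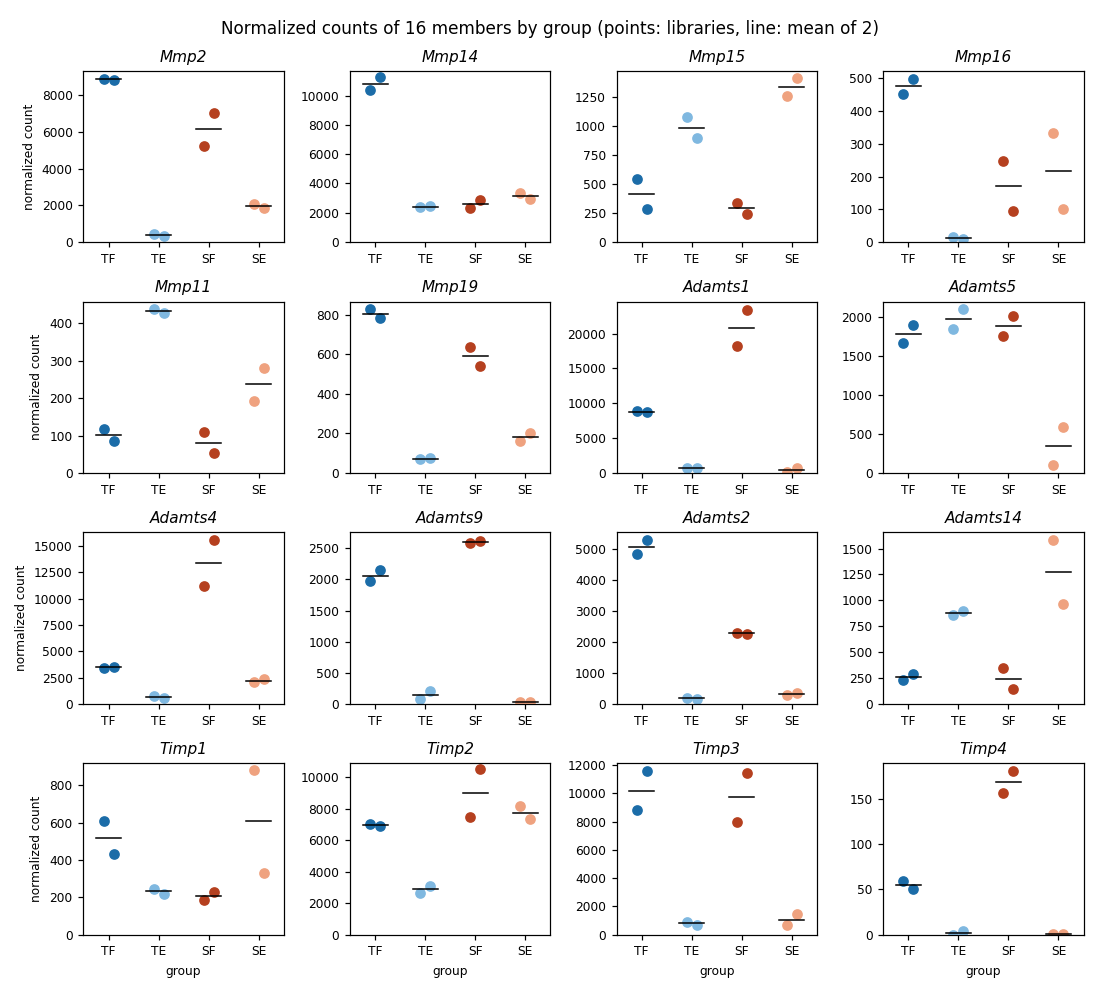
Normalized counts (vertical, linear axes from 0) of 16 members in the 4 groups; each point is a library and each line the mean of 2. TE and SE lie below TF and SF for Mmp2, Mmp19, Adamts1, Adamts2, Adamts4, Adamts9, Timp3 and Timp4, and above them for Mmp11, Mmp15 and Adamts14.

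Among the procollagen N-proteinases, which remove the amino-terminal propeptide of fibrillar procollagens, Adamts2 and Adamts14 went in opposite directions. Adamts2 gave 4814 and 5264 in TF, 204 and 166 in TE, 2284 and 2251 in SF, and 284 and 340.3 in SE. It fell 27.3-fold in TE (log2 -4.71 ± 0.22, adjusted p = 2.48e-06) and 7.26-fold in SE (log2 -2.67 ± 0.20, adjusted p = 1.21e-05, edgeR's quasi-likelihood test). Adamts14 gave 231 and 286 in TF, 857 and 898 in TE, 347 and 141 in SF, and 1583 and 959.9 in SE, with every expanded library above every fresh one. It rose 3.39-fold in TE (log2 1.82 ± 0.39, adjusted p = 0.00773) and 5.21-fold in SE (log2 2.58 ± 0.40, adjusted p = 0.000784, edgeR). Adamts3, the third of these enzymes, gave 103 and 155 in TF, 0 in both libraries of TE, 70.1 and 127 in SF, and 7.87 and 6.01 in SE. It was at least 56.5-fold higher in TF than in TE (adjusted p = 0.000904) and 14.2-fold higher in SF than in SE (log2 -3.62 ± 0.88, adjusted p = 0.0112, edgeR), and the call in SE was lost without SF2 (adjusted p = 0.0561).

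The proteoglycanases, which cut aggrecan and versican, held the highest levels among the Adamts genes. Adamts1 (chr16:85793827-85803113) gave 8873 and 8709 in TF, 648 and 687 in TE, 18210 and 23410 in SF, and 149.5 and 775 in SE. All fresh libraries lay far above all expanded ones, and SE1 was lower than SE2. Adamts1 fell 13.2-fold in TE (log2 -3.66 ± 0.60, adjusted p = 0.00188) and 45-fold in SE (log2 -5.30 ± 0.65, adjusted p = 0.0002, edgeR's quasi-likelihood test). Adamts5 (chr16:85856173-85901828), the next gene on chromosome 16 and 53.1 kb away on the same strand, gave 1670 and 1905 in TF, 1847 and 2102 in TE, 1755 and 2012 in SF, and 109 and 591 in SE. Here TF, TE and SF overlapped, and only SE lay lower, with SE1 below SE2. Adamts5 fell 5.38-fold in SE (log2 -2.24 ± 0.58, adjusted p = 0.0123), while TE against TF gave log2 0.20 ± 0.55, adjusted p = 0.819 (edgeR), which was not called. The difference between the 2 changes was log2 2.44 ± 0.79, adjusted p = 0.0696 (edgeR), short of the threshold, and it was called with DESeq2 (adjusted p = 0.00713) and without SE1 (adjusted p = 0.00205) or SE2 (adjusted p = 1.92e-06).

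Adamts4 gave 3429 and 3493 in TF, 703 and 594 in TE, 11230 and 15550 in SF, and 2046 and 2384 in SE. It fell 5.33-fold in TE (log2 -2.36 ± 0.23, adjusted p = 7.94e-05) and 6.05-fold in SE (log2 -2.41 ± 0.23, adjusted p = 4.39e-05, edgeR's quasi-likelihood test). Adamts9 gave 1975 and 2144 in TF, 85.4 and 203 in TE, 2589 and 2625 in SF, and 27.6 and 33.2 in SE. It fell 14.3-fold in TE (log2 -3.78 ± 0.36, adjusted p = 7.46e-05) and 85.8-fold in SE (log2 -6.22 ± 0.41, adjusted p = 6.69e-06, edgeR). Adamts20 gave 156 and 337 in TF, 21.7 and 24.7 in TE, 492 and 338 in SF, and 34.3 and 171 in SE, and it fell 10.6-fold in TE (log2 -3.35 ± 0.74, adjusted p = 0.00916), while SE against SF gave log2 -1.82 ± 0.68, adjusted p = 0.058 (edgeR). The latter became a call with DESeq2 (adjusted p = 0.0171), with median-ratio scaling (adjusted p = 0.0432) and without TF1, TF2, TE1, TE2 or SE2, and its log2 value lay between -3.39 and -1.05 with 1 library left out.

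Adamts8 and Adamts15 lie 20.1 kb apart on opposite strands of chromosome 9. Adamts8 gave 771 and 931 in TF, 0 in both libraries of TE, 301 and 351 in SF, and 3.58 and 0 in SE. Adamts15 gave 325 and 533 in TF, 12 and 7.71 in TE, 515 and 406 in SF, and 0 and 3.43 in SE. Both were far higher in all 4 fresh libraries than in the 4 expanded ones, where Adamts8 was at or near 0 and Adamts15 was low in TE and at or near 0 in SE. Adamts8 was at least 373-fold higher in TF than in TE (adjusted p = 4.36e-05) and 182-fold higher in SF than in SE (adjusted p = 9.41e-05, edgeR's quasi-likelihood test), where the fold rests on 5 counts in SE1 and 0 in SE2. Adamts15 fell 43.5-fold in TE (log2 -5.37 ± 0.68, adjusted p = 0.000381) and 268-fold in SE (log2 -7.88 ± 0.82, adjusted p = 7.75e-05, edgeR), where the fold rests on 4 counts in SE2 and 0 in SE1.

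Adamts7 and Adamts12 encode enzymes that cut cartilage oligomeric matrix protein. Adamts7 gave 713 and 684 in TF, 392 and 179.6 in TE, 107 and 60.4 in SF, and 496 and 451 in SE, with SF the lowest group. It rose 5.65-fold in SE (log2 2.70 ± 0.42, adjusted p = 0.000799) and was 2.44-fold lower in TE than in TF (log2 -1.23 ± 0.39, adjusted p = 0.0428, edgeR's quasi-likelihood test). The call in TE was lost without TF1, TF2 or TE2 (adjusted p between 0.102 and 0.303), and Adamts7 overlaps Tbc1d2b on the opposite strand. Adamts12 gave 1592 and 1435 in TF, 115 and 114 in TE, 996 and 1134 in SF, and 138 and 321 in SE. It fell 13.2-fold in TE (log2 -3.67 ± 0.38, adjusted p = 0.000117) and 4.64-fold in SE (log2 -2.03 ± 0.35, adjusted p = 0.00151, edgeR).

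Adamts6 and Adamts10 encode enzymes associated with fibrillin. Adamts6 gave 312 and 257 in TF, 64.9 and 56.9 in TE, 50.7 and 33.5 in SF, and 124 and 105 in SE. It fell 4.68-fold in TE (log2 -2.16 ± 0.47, adjusted p = 0.00802) and rose 2.72-fold in SE (log2 1.64 ± 0.47, adjusted p = 0.0199, edgeR's quasi-likelihood test). In edgeR, the call in TE was lost without TE1 (adjusted p = 0.0568) or TE2 (adjusted p = 0.0758), and the call in SE without SF2 (adjusted p = 0.0859) or SE1 (adjusted p = 0.0773). Adamts10 gave 1487 and 1548 in TF, 222 and 229 in TE, 1697 and 1927 in SF, and 265 and 249 in SE, and fell 6.73-fold in TE (log2 -2.70 ± 0.20, adjusted p = 1.66e-05) and 7.06-fold in SE (log2 -2.63 ± 0.20, adjusted p = 1.21e-05, edgeR).

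Of the remaining Adamts genes, Adamts17 gave 1361 and 1347 in TF, 3.02 and 0.779 in TE, 242 and 108 in SF, and 23.7 and 16.6 in SE. TF stood far above all other groups and TE was near 0. It fell 712-fold in TE, where the fold rests on 5 counts in both libraries together (log2 -9.34 ± 0.62, adjusted p = 1.05e-05), and 8.67-fold in SE (log2 -2.92 ± 0.45, adjusted p = 0.000777, edgeR's quasi-likelihood test). Adamts19 gave 170.1 and 103 in TF, 0 in both libraries of TE, 17.8 and 0 in SF, and 0 in both libraries of SE. It was at least 60-fold higher in TF than in TE (adjusted p = 0.0203), a call lost without TF1 (adjusted p = 0.0671) and with DESeq2 (adjusted p = 0.0966). Adamts16 and Adamts18 were called in none of the comparisons and did not exceed 105 in any library.

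Of the 4 inhibitors, Timp3 and Timp4 fell in both cultures, Timp2 fell in TE, and Timp1 rose in SE. Timp3, whose product binds to the matrix and also blocks ADAMTS enzymes, gave 8804 and 11570 in TF, 889 and 695 in TE, 7951 and 11450 in SF, and 669.5 and 1453 in SE. It fell 12.9-fold in TE (log2 -3.63 ± 0.39, adjusted p = 0.000157) and 9.15-fold in SE (log2 -3.00 ± 0.38, adjusted p = 0.000234, edgeR's quasi-likelihood test). Timp2 gave 7039 and 6867 in TF, 2675 and 3094 in TE, 7441 and 10480 in SF, and 8147 and 7321 in SE. TE lay below the other 6 libraries, and the SE and SF values overlapped. Timp2 fell 2.41-fold in TE (log2 -1.21 ± 0.22, adjusted p = 0.00311), a call lost without TE1 (adjusted p = 0.0596), and SE against SF gave log2 -0.03 ± 0.22, adjusted p = 0.933 (edgeR), which was not called and changed sign without SF2 (log2 0.29) or SE2 (log2 0.05).

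Timp1, a secreted inhibitor induced in many tissues on injury, gave 608 and 432 in TF, 245 and 220.5 in TE, 185 and 229 in SF, and 883 and 329.5 in SE. Its SE replicates were far apart. It rose 2.93-fold in SE (log2 1.74 ± 0.43, adjusted p = 0.0105), a call lost without SF1 (adjusted p = 0.066) or SE1 (0.105), and TE against TF gave log2 -1.10 ± 0.43, adjusted p = 0.085 (edgeR's quasi-likelihood test). It was called lower in TE with only the groups compared (adjusted p = 0.0111) and without SE1 (adjusted p = 0.0227) or SE2 (adjusted p = 0.0125). Timp4 gave 59.7 and 50.5 in TF, 0 and 4.63 in TE, 157 and 180.2 in SF, and 0.715 and 0.858 in SE. It fell 23.8-fold in TE (log2 -4.46 ± 1.22, adjusted p = 0.0236), a call lost without TE1 (adjusted p = 0.0835), and the ratio of SF to SE was 214 with a 95% counting interval from 59.3 to 1770 (adjusted p = 0.00264, edgeR). Timp1, Timp3 and Timp4 overlap Syn1, Syn3 and Syn2 on the opposite strand, and Timp2 overlaps Cep295nl on the same strand.

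The next question was whether expansion changed the genes differently in the 2 origins, tested as the interaction, which is the log2 change of TE from TF minus that of SE from SF. It was called for 13 of the 41 members, 12 with a lower and 1 with a higher value in the teratoma-derived cells, or 29.3% and 2.44%, where 9.62% of all genes were lower and 4.70% higher, or 14.3% in either direction. The 12 were Mmp2, Mmp9, Mmp14, Mmp16, Mmp19, Adamts2, Adamts3, Adamts6, Adamts7, Adamts17, Timp1 and Timp2. For Mmp14 the difference was -2.59 ± 0.28 (adjusted p = 0.000531), for Mmp16 -5.86 ± 0.93 (adjusted p = 0.00335) and for Adamts17 -6.42 ± 0.76 (adjusted p = 0.000838, all edgeR's quasi-likelihood test). For Adamts6 it was -3.80 ± 0.66 and for Adamts7 -3.93 ± 0.57, the pair that was lower in TE and higher in SE. The 1 higher value was that of Adamts9, at 2.44 ± 0.49 (adjusted p = 0.0105, edgeR), which was lower after culture in both origins and by more in satellite cells.

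The differences of 9 of these 12 members and of Adamts9 were kept when any library was left out. Timp2 (adjusted p = 0.0302) was lost without TF1, TF2, TE1 or TE2 (adjusted p between 0.0934 and 0.187), Adamts3 (adjusted p = 0.0305) without TF2, TE1, TE2 or SF1 (between 0.0594 and 0.0947), and Mmp9 (adjusted p = 0.0428) without TF1, TE1, TE2 or SE2 (between 0.0525 and 0.21, edgeR's quasi-likelihood test). For Adamts4, Timp3 and Adamts1 the difference was not called (log2 0.05 ± 0.31, adjusted p = 0.991 for Adamts4, log2 -0.63 ± 0.50, adjusted p = 0.462 for Timp3 and log2 1.64 ± 0.78, adjusted p = 0.197 for Adamts1, edgeR). That of Adamts12 was just short of the threshold (log2 -1.64 ± 0.49, adjusted p = 0.0512, edgeR). It became a call with DESeq2 (adjusted p = 0.0353) and, in edgeR, with the replicate block (adjusted p = 0.0486) and without the filter on low counts (adjusted p = 0.000436). With 1 library left out, it lay between -2.12 and -0.91. That of Adamts1 became a call without SE2 (log2 3.27, adjusted p = 1.64e-05) and without the filter on low counts (adjusted p = 5.57e-05), and lay between 0.90 and 3.27 with 1 library left out.

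The 2 origins were then compared within the fresh and within the expanded cells. Of the 41 members, 7 were higher and 1 lower in TF than in SF, or 17.1% and 2.44%, where 15.1% of all genes were higher and 9.13% lower, or 24.2% in either direction. The share of higher members was thus near that of all genes. The median log2 fold change was 0.54 over the members and 0.08 over all genes. The higher members were Mmp14 (4.17-fold, log2 2.22 ± 0.20, adjusted p = 0.000168), Adamts2 (2.22-fold, log2 1.31 ± 0.19, adjusted p = 0.00138), Adamts17 (7.75-fold, log2 3.12 ± 0.42, adjusted p = 0.00101), Adamts6 (6.76-fold, log2 2.92 ± 0.49, adjusted p = 0.00277) and Adamts7 (8.34-fold, log2 3.23 ± 0.43, adjusted p = 0.00089, all edgeR's quasi-likelihood test), together with Adamts8 (2.61-fold, log2 1.54 ± 0.47, adjusted p = 0.045) and Timp1 (2.51-fold, log2 1.48 ± 0.43, adjusted p = 0.0333, edgeR). The libraries of TF and SF did not overlap for any of the 7, but this also held for members that were not called, such as Adamts10, Mmp2 and Timp2. The share of all genes without such overlap was not counted, so the separation carries no statement about these members. The call of Adamts8 was lost without TF1, TF2, SF1 or SF2 (adjusted p between 0.0765 and 0.187) and that of Timp1 without TF1, SF1 or SF2 (adjusted p between 0.0556 and 0.156), and both were lost with median-ratio scaling in the test (adjusted p = 0.0687 for Adamts8 and 0.0551 for Timp1). Without SF1, 7 members were higher, of which 5 were among the 7.

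The 1 member that was lower in TF than in SF was Adamts4 (3.87-fold, log2 -1.80 ± 0.22, adjusted p = 0.000652, edgeR's quasi-likelihood test). Adamts1 was 2.37-fold lower in TF by group means, but not called (log2 -1.09 ± 0.55, adjusted p = 0.18, edgeR), and Mmp2 was just short of the threshold (log2 0.68 ± 0.22, adjusted p = 0.0508, edgeR). Both were called in edgeR without SE1 (adjusted p = 0.00109 for Adamts1 and 0.0302 for Mmp2) or SE2 (adjusted p = 0.000986 for Adamts1 and 0.0256 for Mmp2). The cluster gene Mmp3 gave log2 -0.74 ± 0.43, adjusted p = 0.257 (edgeR). Timp2 gave log2 -0.21 ± 0.22, adjusted p = 0.525 and Timp3 log2 0.23 ± 0.35, adjusted p = 0.694 (edgeR), neither called and each with a sign that turned when 1 library was left out (log2 0.10 without SF2 for Timp2 and -0.05 without SF1 for Timp3).

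In the expanded cells, 7 members were lower and 2 higher in TE than in SE, or 17.1% and 4.88%, where 4.07% of all genes were lower and 3.15% higher, or 7.21% in either direction. The higher members were both proteoglycanase genes, Adamts5 (5.64-fold, log2 2.52 ± 0.58, adjusted p = 0.0308) and Adamts9 (4.74-fold, log2 2.25 ± 0.38, adjusted p = 0.00684, edgeR's quasi-likelihood test). The lower members were Mmp2 (5.2-fold, log2 -2.35 ± 0.24, adjusted p = 0.000564), Mmp16 (19.1-fold, log2 -4.22 ± 0.70, adjusted p = 0.00686), Mmp19 (2.55-fold, log2 -1.33 ± 0.26, adjusted p = 0.0156), Adamts4 (3.41-fold, log2 -1.75 ± 0.22, adjusted p = 0.00178), Adamts17 (10.6-fold, log2 -3.30 ± 0.65, adjusted p = 0.015) and Timp2 (2.68-fold, log2 -1.40 ± 0.22, adjusted p = 0.00516, all edgeR). Adamts3, at 0 in TE and at 11 and 7 counts in SE, was at least 3.04-fold higher in SE (adjusted p = 0.0379, edgeR).

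With only the TE and SE libraries in the fit, 0 members were higher and 4 lower, with an adjusted p of 0.0926 for Adamts5 and 0.0699 for Adamts9 (edgeR's quasi-likelihood test). Without TE1 or without TE2, 4 members were lower as well. In edgeR, Mmp19 was lost without TE1 (adjusted p = 0.146) or TE2 (0.115), Adamts17 without TE2 (0.0697), Timp2 without TE1 (0.0748) and Adamts3 without TF2, TE1, TE2 or SE1 (between 0.0581 and 0.156). Mmp2, Mmp16 and Adamts4 were called with each library left out. The members Mmp14 (log2 -0.37 ± 0.19, adjusted p = 0.337), Timp1 (log2 -1.36 ± 0.43, adjusted p = 0.0982), Timp3 (log2 -0.40 ± 0.35, adjusted p = 0.61) and Adamts2 (log2 -0.73 ± 0.19, adjusted p = 0.0523) were not called (edgeR). With DESeq2, Timp1 (adjusted p = 0.0432) and Adamts2 (adjusted p = 0.00445) were called lower in TE, and Timp1 was also called without SE2 (log2 -1.89, adjusted p = 0.00257 in edgeR) and lay between -1.89 and -0.48 with 1 library left out. Adamts2 was also called with median-ratio scaling (adjusted p = 0.0408) and without SF2 or SE1. For Adamts1, the SE replicates lay on both sides of the TE values, and the result was log2 0.55 ± 0.55, adjusted p = 0.664 (edgeR), with a call without SE2 (adjusted p = 0.000137) and a turned sign without SE1 (log2 -0.19).

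Other genes of matrix turnover were looked at as lists. Of the 15 tested regulators and activators, 11 were lower and 0 higher in TE than in TF, and 7 were lower and 1 higher (Bsg) in SE than in SF. The shares over all genes to set beside these and the following lists were 16.2% lower and 9.86% higher in TE, and 19.8% lower and 20.9% higher in SE. Reck, a membrane-bound inhibitor of matrix metalloproteinases, gave 783 and 696 in TF, 104 and 108 in TE, 366 and 341 in SF, and 50.8 and 48.9 in SE, and was lower in both cultures (log2 -2.75 ± 0.29, adjusted p = 0.000135 in TE and log2 -2.63 ± 0.29, adjusted p = 0.000112 in SE, edgeR's quasi-likelihood test). Plat, the tissue plasminogen activator, gave 2033 and 2634 in TF, 54.7 and 58.6 in TE, 1749 and 2127 in SF, and 129 and 137 in SE, lower in TE (log2 -5.31 ± 0.25, adjusted p = 2.48e-06) and in SE (log2 -3.68 ± 0.23, adjusted p = 5.47e-06, edgeR). Serpine2, an inhibitor of plasminogen activators and thrombin, gave 2538 and 2552 in TF, 86.9 and 91.7 in TE, 782 and 891 in SF, and 871 and 801 in SE. It was lower in TE (log2 -4.78 ± 0.21, adjusted p = 2.48e-06) and not called in SE (log2 0.19 ± 0.18, adjusted p = 0.419, edgeR), and the difference was called (interaction log2 -4.97 ± 0.27, adjusted p = 2.45e-05, edgeR).

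Of the 7 other matrix proteases, 4 were lower in TE and 5 in SE, and 0 were higher in either. Bmp1, which removes the carboxy-terminal propeptide of procollagens, gave 2621 and 2599 in TF, 576 and 520.4 in TE, 2994 and 3649 in SF, and 824 and 776 in SE, lower in TE (log2 -2.20 ± 0.19, adjusted p = 4.53e-05) and SE (log2 -1.87 ± 0.19, adjusted p = 6.53e-05, edgeR's quasi-likelihood test). Ctsk, a collagen-cutting cathepsin, gave 1126 and 949 in TF, 15.7 and 3.85 in TE, 426 and 782 in SF, and 32.2 and 20.6 in SE, lower in TE (log2 -6.65 ± 0.61, adjusted p = 5.93e-05) and SE (log2 -4.32 ± 0.53, adjusted p = 0.000207, edgeR). Of the 6 ADAMTS-like genes, 3 were lower in TE and 3 in SE, and 0 were higher in either. Of the 7 ADAM sheddases, which cut membrane proteins, 1 was higher (Adam9) and 2 lower (Adam8 and Adam15) in TE, and 3 were higher (Adam9, Adam10 and Adam19) and 0 lower in SE.

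Of the 16 substrates of these enzymes, 16 were lower and 0 higher in TE than in TF, and 10 were lower and 2 higher in SE than in SF, where 16.2% of all genes were lower in TE, and 19.8% were lower and 20.9% higher in SE. The chondrocyte list, which shares Acan and Comp with these substrates, summed to between 5280 and 10270 in the fresh and between 186 and 1900 in the expanded libraries, and the fibro-adipogenic list was lower in the expanded libraries too. In TE, SF and SE most of the chondrocyte sum was Sox9 (4381 and 4727 in SF). Col2a1 gave 5842 and 2102 in TF and 113 and 44.5 in SF, and Comp 349 and 236 in TF and 693 and 844 in SF. The part of such cells in the levels of the substrates was not tested. The 2 higher ones in SE were Vcan, the versican cut by the proteoglycanases (log2 1.99 ± 0.33, adjusted p = 0.00128), and Fn1, fibronectin (log2 1.23 ± 0.25, adjusted p = 0.00375, edgeR's quasi-likelihood test). Vcan gave 17140 and 21170 in TF, 3520 and 3049 in TE, 902 and 1302 in SF, and 5141 and 2547 in SE. Between the fresh groups, 13 of the 16 substrates were higher in TF than in SF and 0 lower, against 15.1% and 9.13% of all genes, and the fibrillar collagen gene Col1a1 gave 209400 and 213200 in TF, 262 and 121 in TE, 17610 and 32540 in SF, and 3052 and 7582 in SE. Col1a1 was lower in TE (log2 -10.05 ± 0.72, adjusted p = 1.49e-05) and in SE (log2 -2.05 ± 0.50, adjusted p = 0.00983, edgeR). Col1a2 and Col3a1 fell less in TE, to 18970 and 18960 for Col1a2 (log2 -3.48 ± 0.48) and 8796 and 9937 for Col3a1 (log2 -4.78 ± 0.36). Against SE, Col1a1 was lower in TE (log2 -4.77 ± 0.575, adjusted p = 0.0014, edgeR). Col1a2 was higher in TE than in SE (log2 2.865 ± 0.47, adjusted p = 0.00647, edgeR), and Col3a1 was not called (log2 -0.44 ± 0.30).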

How the data were processed

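RNA from 8 libraries of mouse skeletal myogenic cells, 2 each of TF, TE, SF and SE, had been made into libraries with a low-input stranded total RNA kit and sequenced as read pairs. The authors deposited 1 table of estimated counts per gene, made with kallisto 0.44.0, and the submitters' processing notes also name CASAVA and the mouse genome GRCm38 (mm10). The strand setting of the counting is not given in the sources used here. Because estimated counts divide reads between similar transcripts, the values of paralogs such as Mmp1a and Mmp1b are uncertain.

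Library totals were 11930961 to 21146632 counts, and no column of another sample was present. Samples were grouped by their titles. Counts were rounded to whole numbers, filtered with filterByExpr, scaled by TMM and fitted for all 4 groups together with edgeR 4.0.16 in R 4.3.3 (glmQLFit and glmQLFTest), with Benjamini-Hochberg adjustment over 17582 genes and a common dispersion of 0.233. Calls needed an adjusted p below 0.05 and a fold above 1.25. Standard errors were taken as the size of the log2 fold change divided by the square root of F. Printed levels are counts divided by DESeq2 1.42.0 median-ratio size factors, and levels per kb use the longest coding transcript of GENCODE M21, which also gave the positions. Against a group at 0 in both libraries, a fold is a lower bound from a floor of 3 counts per library. Against a group with 1 to 3 counts, it is given with an exact 95% Poisson interval, which covers counting error only. The script for the tests was checked on simulated counts. Promoters came from RefSeq (GRCm38.p6), where 32 of the 46 members matched.

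The gene families followed and the gene lists were chosen with earlier results of these data known, and every gene of the families was then taken by its symbol. Members called in any comparison, and other members whose mean reached 100 normalized counts, are named with their values; the rest are given by counts and ranges. The alternatives were median-ratio scaling, no filter on low counts, DESeq2, the replicate number as a block, glmTreat with the minimum fold, only the groups compared, and leaving out each library. Replicates of 1 group differed by more than counting noise in every group, with a chi-square per degree of freedom of 11.7 in TE and 87.2 in SE at the ends. The replicate numbers were not used as pairs in the main fit. The correlation of deviations between same-numbered libraries lay between -0.026 and 0.076. This showed no shared deviation, but it cannot tell whether same-numbered libraries came from the same starting cells. The promoter windows of the chromosome 9 cluster were searched for letters only.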

Additional observations from a re-analysis of the deposited data

Results flagged for a closer look

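The change in culture differed between teratoma-derived and satellite cells for 13 members in the interaction, tested with edgeR's quasi-likelihood method. Given as the log2 change of TE from TF minus that of SE from SF, the difference was -3.04 for Mmp2, -2.59 for Mmp14, -5.86 for Mmp16 and -1.94 for Mmp19. Among the Adamts genes it was -2.04 for Adamts2, -3.80 for Adamts6, -3.93 for Adamts7, -6.42 for Adamts17 and, as the 1 positive value, 2.44 for Adamts9. Among the inhibitors it was -2.84 for Timp1 and -1.19 for Timp2. Adamts3 and Mmp9 were at 0 in TE, so only the adjusted p of the difference is given, 0.0305 for Adamts3 and 0.0428 for Mmp9.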

How the results depend on the processing

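Of the 83 calls of members over the 5 comparisons, 58 were kept under every alternative that could be fitted, and over 1148 pairs of a call and an alternative 1078 were kept, 70 lost and 0 turned in sign. Without the filter on low counts, 11 members were higher and 2 lower in TF than in SF, 13 were lower in TE than in SE, and 4 had a higher interaction, a count that was 3 with DESeq2. With only the groups compared, 2 members were lower in TF than in SF, and 0 were higher and 4 lower in TE than in SE. With each library left out in turn, TF against SF gave 5 to 11 higher (11 without SE1 or SE2) and 1 to 2 lower, TE against SE gave 2 to 4 higher (4 without SE2) and 4 to 10 lower (4 without TE1 or TE2), and the interaction gave 1 to 4 higher (4 without SE2, 2 without SE1). TE against TF gave 20 to 28 lower and SE against SF 17 to 21 lower. The replicate block, run although same-numbered libraries showed no shared deviation, gave 2 members with a higher interaction and lost the calls of Mmp17 in TE against TF, Adamts8 in TF against SF and Adamts3 in TE against SE. Over all genes, TE against SE gave 2260 calls without the filter, 2163 with DESeq2, 666 without TE1 and 653 without TE2, and TF against SF gave 2639 without TF1 and 2671 without TF2. TE against TF gave 2759 calls without TE1 and 2739 without TE2, and the interaction 1473 and 1467. Median-ratio scaling in the test moved the median log2 fold change of all genes by -0.194 for SE against SF, -0.159 for TF against SF and 0.139 for the interaction.

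For 23 printed differences that were not called, 317 pairs with an alternative gave 264 without a call in the same direction, 42 with a call and 11 of opposite sign. Some uncalled log2 differences changed sign with 1 library left out. Timp2 ranged from -0.27 to 0.29 in SE against SF (0.05 without SE2) and from -0.47 to 0.10 in TF against SF. Timp3 ranged from -0.052 to 0.56 in TF against SF, from -0.85 to 0.27 in TE against SE and from -1.07 to 0.040 in the interaction. Mmp16 ranged from -0.51 to 1.36 in SE against SF, Adamts1 from -0.19 to 2.19 in TE against SE, and Adamts4 from -0.25 to 0.31 in the interaction (-0.06 without TE1, -0.05 without SE1). Where a setting moved a value, the cause was not tested beyond the number of libraries or genes it leaves. With 2 libraries per group, and with low counts for the chromosome 9 genes, differences of such genes were often not detectable at this depth.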

Other observations

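Markers of further cell types, summed as normalized counts of each list, differed between the libraries as follows. The chondrocyte list (Sox9, Acan, Col2a1, Comp and Matn1) gave 10270 and 6562 in TF, 186 and 197 in TE, 5280 and 5632 in SF, and 1900 and 974.8 in SE, and Acan, which encodes aggrecan, was at 0 in the 4 expanded libraries. Sox9 made up most of the sum in TE, SF and SE. The epithelial list gave 4887 and 1588 in TF, 6.75 and 12.3 in TE, 199 and 30.2 in SF, and 16.4 and 31.8 in SE, so that TF1 held more than TF2. The pericyte and smooth muscle list gave 22100 and 25640 in TF, 26200 and 26040 in TE, 30920 and 30900 in SF, and 9095 and 25710 in SE, with Kcnj8 at 0 in the 4 expanded libraries and Acta2 making up most of the sum in TE. The Schwann and neural list, most of which was Nes in TE and SE, gave 4394 and 3983 in TF, 37720 and 36400 in TE, 2688 and 2769 in SF, and 21520 and 25250 in SE. The pluripotency list gave 67.5 and 0 in TF, 9.79 and 0.786 in TE, 173 and 127 in SF, and 8.99 and 14.8 in SE.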
